A study of Homo sapiens with 6 samples.

Results

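The subunits of the mitochondrial oxidative phosphorylation system were examined in OCI-AML2, an established human acute myeloid leukemia cell line. Members were taken by gene symbol: protein-coding NDUFA, NDUFB, NDUFC, NDUFS and NDUFV genes with a number, SDHA to SDHD, UQCR genes and CYC1, COX4 to COX8 subunits, ATP5 genes, and the protein genes of mitochondrial DNA. This gave 101 of 58233 gene identifiers, with 45 in complex I, 4 in complex II, 11 in complex III, 20 in complex IV and 21 in complex V. Of them, 88 are nuclear and 13 mitochondrial. NDUFA4 counts with complex I by its symbol, although its protein is now placed in complex IV.

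Poly(A) RNA was sequenced with a stranded kit in 3 IKZF1-ko libraries, whose cells were CRISPR-derived knockouts of IKZF1, the gene of the blood transcription factor Ikaros, and in 3 NT control libraries, whose cells carried a non-targeting control. The study asked which genes change with loss of IKZF1. No drug treatment is labelled for any of the 6 libraries, and both groups share the OCI-AML2 background. The design text counts 3 cell lines a group, while the extraction protocol speaks of isolation in triplicate from parental and knockout cells. The sources used here name neither the guides nor whether a line is 1 clone, so the p-values describe the spread between 6 libraries, and this spread may be partly technical.

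Oxidative phosphorylation passes electrons from NADH through complex I, or from succinate through complex II, to ubiquinone, then through complex III and cytochrome c to complex IV, which reduces oxygen. Complexes I, III and IV pump protons across the inner mitochondrial membrane, and complex V, the ATP synthase, uses their return to make ATP. Complexes I, III, IV and V are built from products of both genomes, while complex II is wholly nuclear. Acute myeloid leukemia cells are known for a marked dependence on this system.

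The libraries held 11300519 to 18214328 counted reads, and of 58233 identifiers the low-count filter left 13028 for testing. IKZF1 mRNA stood at 421, 426 and 436 CPM (reads scaled to an equal library total, with no scaling for transcript length) in IKZF1-ko replicates 1, 2 and 3, against 331, 292 and 334 CPM in NT control. It was not lower in the libraries labelled IKZF1-ko, so the mRNA does not check the labels. IKZF1-ko replicate 1 and NT control replicate 2 stood apart from the other 4 libraries along the first principal component, which held 67.6% of the variance, and no label names what they share. Of 11 myeloid markers all were present, among them CD33 at 72.3 to 96.2 CPM and SPI1 at 197 to 240 CPM. Of 11 markers of lymphoid and other cells, NCAM1 alone was tested, and CD3E, MS4A1, HBB and EPCAM had no counts in any of the 6 libraries.

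In the libraries labelled IKZF1-ko, part of the nuclear-encoded subunits was slightly lower, by 1.11-fold to 1.36-fold. The 12 nuclear genes of the complex I core and of the F1 part of complex V did not pass the test, nor did the mitochondrial genes with the exception of MT-ND6, while SDHA, a catalytic subunit of complex II, did. Whether these genes differ from the other members was not tested, and NDUFV2, among the 12, was barely counted. Of 93 members tested, 23 fell and 0 rose when edgeR's quasi-likelihood model held a library-set term, which marks IKZF1-ko replicate 1 and NT control replicate 2 (24.7% of the members, against 6.62% of all genes falling and 6.93% rising). The members' median log2 fold change was -0.12, against 0.002 for all genes tested, and 77 members (82.8%) were below 0, against 49.4% of all genes. Without adjustment 39 members had a p under 0.05, against 27.4% of all genes. Because the sets were drawn from the same counts, the p-values treat as given what was itself estimated.

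The fit on group alone called 0 members and 0 of 13028 genes in either direction, so percent called was 0. In that fit 2 members, NDUFA2 and COX7B, had an unadjusted p under 0.05, against 3.50% of all genes, and DESeq2 and limma-voom on group alone also called 0 members. The members' median there was -0.12. When a surrogate variable replaced the set term, 10 members fell and 0 rose, all 10 among the 23, and the median of all members was -0.08 (3.53% of all genes fell and 4.38% rose in that fit). Without IKZF1-ko replicate 3 the fit with the set term had 12 falling members, and without NT control replicate 1 it had 14 falling and 1 rising. The shares of all genes called in those fits are not given here, so the drop cannot be read as particular to the members.

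All libraries of IKZF1-ko lay below all libraries of NT control in 10 members (10.8%, against 4.07% of all genes) and above them in 1, NDUFA4L2 (5.28% of all genes). In the 4 libraries of the larger set alone 23 members fell and 0 rose (7.10% of all genes fell and 7.64% rose), 18 of them among the 23 of the set-term fit. NDUFA4, NDUFB3, COX6B1, COX8A and ATP5MC1 were called with the set term and not there. Of the 23 that fell in the 4 libraries, 21 were also lower in IKZF1-ko replicate 1 than in NT control replicate 2, the pair which that fit did not use. That is 91.3%, against 87.7% of all genes that fell in the 4 libraries and 50% of all genes tested there. In the 4 libraries both IKZF1-ko libraries were deeper than both NT control libraries, and the part of depth in these calls was not tested.

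**Figure D1:**
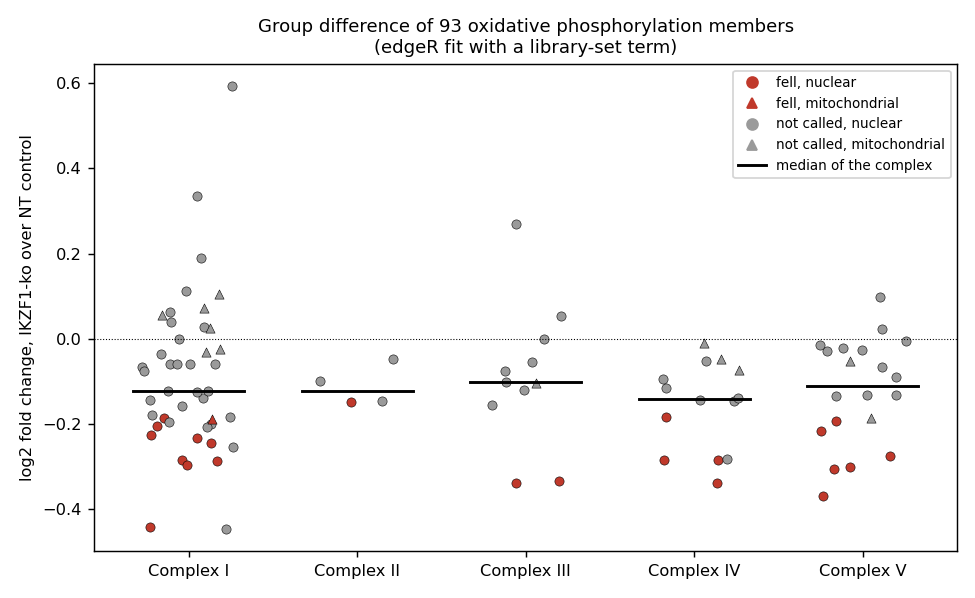
Log2 fold change of IKZF1-ko over NT control (vertical axis) for each of the 93 members tested, by complex, from the fit with the library-set term. Red points fell, grey points were not called, triangles are mitochondrial genes and bars are medians per complex. The 23 red points lie between -0.44 and -0.15, and every complex has a median below 0.

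Promoter sequence is shown for 4 nuclear members that fell, because such genes are known to share binding motifs of NRF1, of ETS factors such as GABP and of YY1. Windows are 300 bases, most of them before the start, from RefSeq on GRCh38.p14, 5′ to 3′ on the gene's strand, with motif matches in capitals. Searched on both strands were GCGCA, any base, GCGC (NRF1), CCGGAAG (ETS) and AAGATGGCG (YY1). Overlapping matches, as in the first capitals of ATP5MK, run together.
SDHA (chr5:218070-218369, plus strand): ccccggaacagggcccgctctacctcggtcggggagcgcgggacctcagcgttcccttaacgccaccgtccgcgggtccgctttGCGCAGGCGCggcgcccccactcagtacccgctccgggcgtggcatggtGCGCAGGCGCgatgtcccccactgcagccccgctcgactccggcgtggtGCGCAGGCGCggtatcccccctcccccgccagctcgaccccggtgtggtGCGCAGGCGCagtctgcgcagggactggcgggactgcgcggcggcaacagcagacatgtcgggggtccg
UQCR10 (chr22:29767119-29767418, plus strand): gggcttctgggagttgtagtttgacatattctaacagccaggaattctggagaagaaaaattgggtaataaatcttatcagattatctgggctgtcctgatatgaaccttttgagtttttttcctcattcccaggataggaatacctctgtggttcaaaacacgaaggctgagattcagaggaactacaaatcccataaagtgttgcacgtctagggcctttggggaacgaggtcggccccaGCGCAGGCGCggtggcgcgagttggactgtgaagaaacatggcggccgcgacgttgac
ATP5MK (chr10:103396426-103396725, minus strand): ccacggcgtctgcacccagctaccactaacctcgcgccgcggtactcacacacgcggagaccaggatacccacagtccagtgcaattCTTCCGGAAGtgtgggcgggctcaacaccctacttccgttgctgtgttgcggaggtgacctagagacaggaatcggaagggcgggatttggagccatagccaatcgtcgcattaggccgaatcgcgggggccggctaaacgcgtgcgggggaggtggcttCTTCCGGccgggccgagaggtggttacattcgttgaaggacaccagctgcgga
COX7B (chrX:77899218-77899517, plus strand): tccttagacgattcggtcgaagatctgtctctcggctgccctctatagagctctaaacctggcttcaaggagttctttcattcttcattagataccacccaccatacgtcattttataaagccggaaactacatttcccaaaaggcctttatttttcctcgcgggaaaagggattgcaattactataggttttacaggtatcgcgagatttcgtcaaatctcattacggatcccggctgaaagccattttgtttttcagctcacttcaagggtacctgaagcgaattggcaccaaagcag

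SDHA held 4 evenly spaced copies of the NRF1 letters and UQCR10 held 1, which ran across the start. ATP5MK held 3 ETS matches, and COX7B held none of the 3 motifs in its window. Of 88 nuclear members, 69 had a window, and 24.6% of these held the NRF1 letters, 29% the ETS letters and 11.6% the YY1 letters, against 8.58%, 14.2% and 2.74% of 15843 protein-coding genes, of which 22.8% held any of the 3. At least 1 motif stood in 10 of 17 windows of members that fell (58.8%) and in 26 of 47 windows of members tested and not called (55.3%). By motif, the NRF1 letters stood in 3 of the 17 falling windows (17.6%) and 13 of the 47 others (27.7%), the ETS letters in 7 (41.2%) and 13 (27.7%), and the YY1 letters in 2 (11.8%) and 5 (10.6%), with no test. SDHA and UQCR10 are thus 2 of the 3 falling members with the NRF1 letters, and the windows shown are not typical of the 17. A match is a description of letters and does not show that a factor binds.

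Complex I, the NADH dehydrogenase, had 44 of its 45 members tested, of which 10 fell and 0 rose, with a median of -0.12 on the log2 scale. The counts per complex, here and below, stand beside 6.62% of all genes falling and 6.93% rising in the set-term fit. NDUFA2 (ENSG00000131495, chromosome 5, 140638740 to 140647785 of GRCh38), an accessory subunit, fell most among members that passed. It stood at 23.3, 29.5 and 24.5 CPM in IKZF1-ko replicates 1, 2 and 3, against 37.3, 33 and 34.7 CPM in NT control replicates 1, 2 and 3. The groups did not overlap, and IKZF1-ko was 1.36-fold lower (log2 fold change -0.44, SE 0.083, adjusted p = 0.00184). NDUFA2 shares exon positions with IK and TMCO6 on the opposite strand.

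NDUFS5, an accessory subunit, stood at 76.3, 112 and 109.7 CPM in IKZF1-ko, against 128, 97.6 and 125 CPM in NT control (log2 fold change -0.24, SE 0.052, adjusted p = 0.00464). IKZF1-ko replicate 1 was the lowest library and NT control replicate 2 the next lowest, so the groups overlapped. NDUFB7 (log2 fold change -0.30, SE 0.072, adjusted p = 0.0105), NDUFA6 (-0.29, adjusted p = 0.00977), NDUFB6 (-0.29, 0.0407), NDUFB10 (-0.23, 0.0109), NDUFB3 (-0.23, 0.0481) and NDUFB9 (-0.20, 0.0156) also fell, all accessory subunits. With a surrogate variable 3 complex I members fell, NDUFA2, NDUFB10 and MT-ND6. NDUFS5 (adjusted p = 0.0501), NDUFB9 (0.0542), NDUFB7 (0.0628), NDUFB6 (0.0942), NDUFA4 (0.0942), NDUFA6 (0.0981) and NDUFB3 (0.159) lost their calls there. Of 11 NDUFB genes 5 fell, and of 13 NDUFA genes tested 3 fell.

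None of the 7 nuclear core subunits of complex I was called. They belong to the arm that takes electrons from NADH to ubiquinone. NDUFV2 was barely counted, at 0.875 CPM over 6 libraries (log2 fold change 0.19, SE 0.42, adjusted p = 0.83). A change of the size seen in the members that fell could have been missed in it. NDUFS8, which holds iron-sulfur centres, came nearest to the threshold, at 41.1, 55.8 and 56.1 CPM in IKZF1-ko, against 62.2, 51.5 and 59.3 CPM in NT control (log2 fold change -0.18, SE 0.064, adjusted p = 0.0634). Its fold change was as large as that of some members that passed. NDUFS3 was at -0.12 (adjusted p = 0.162). NDUFV1, which holds the flavin, had a log2 fold change of -0.04 (adjusted p = 0.783), and NDUFS1 one of -0.06 (adjusted p = 0.457).

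NDUFA4 stood at 89.8, 112 and 106 CPM in IKZF1-ko, against 117, 109 and 124 CPM in NT control (log2 fold change -0.19, SE 0.053, adjusted p = 0.0276). Its paralog NDUFA4L2, known as a target of hypoxia signalling, was near the lower limit of the libraries, at 2.34, 2.075 and 1.89 CPM in IKZF1-ko, against 0.933, 1.5 and 1.75 CPM in NT control (log2 fold change 0.59, SE 0.28, adjusted p = 0.186). NDUFA4L2 was higher in each IKZF1-ko library than in each NT control library but did not pass. It shares exon positions with SHMT2 on the opposite strand.

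NDUFB8 and NDUFA13 were at the ends of the fold changes but were barely counted. NDUFB8 stood at 1.94, 2.18 and 2.31 CPM in IKZF1-ko, against 3.73, 3.62 and 1.4 CPM in NT control (log2 fold change -0.45, SE 0.29, adjusted p = 0.351), and NDUFA13 at 2.87, 2.62 and 2.19 CPM in IKZF1-ko, against 1.78, 2.05 and 2.27 CPM in NT control (log2 fold change 0.34, SE 0.24, adjusted p = 0.398). Both overlapped between groups. Each is overlapped by a same-strand gene, over 71.7% of the principal transcript of NDUFB8 and 44.1% of that of NDUFA13.

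Complex II, succinate dehydrogenase, had all 4 members tested, and 1 fell. A single call among 4 genes is no result about the complex. SDHA (ENSG00000073578, chromosome 5, 218241 to 256700), the flavoprotein subunit, stood at 238, 339 and 308 CPM in IKZF1-ko, against 361, 260.3 and 361 CPM in NT control (log2 fold change -0.15, SE 0.048, adjusted p = 0.0476), and the groups overlapped. Its value is uncertain, since the near-identical copies SDHAP1, SDHAP3 and SDHAP4 also had counts, and it was at -0.08 (adjusted p = 0.385) with a surrogate variable. SDHB, the iron-sulfur subunit, stood at 112, 136 and 140.3 CPM in IKZF1-ko, against 148, 124 and 158 CPM in NT control and did not pass (log2 fold change -0.15, adjusted p = 0.056), but fell in the 4 libraries of the larger set.

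The membrane anchors of complex II were not called with the set term. SDHC stood at 113, 105 and 103 CPM in IKZF1-ko, against 107, 114 and 111 CPM in NT control (log2 fold change -0.05, adjusted p = 0.584). SDHD stood at 85.3, 85.1 and 82.8 CPM in IKZF1-ko, against 96.9, 81.2 and 93.9 CPM in NT control (-0.10, adjusted p = 0.296), and fell in the 4 libraries. SDHA and SDHB were lower, and SDHC higher, in IKZF1-ko replicate 1 and NT control replicate 2 than in all other libraries.

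Complex III, the cytochrome bc1 complex, had 11 members tested, of which 2 fell. UQCR10 (ENSG00000184076, chromosome 22, 29767369 to 29770413), a small subunit, stood at 40.4, 66.9 and 66.3 CPM in IKZF1-ko replicates 1, 2 and 3, against 79.6, 59 and 77.8 CPM in NT control replicates 1, 2 and 3 (log2 fold change -0.33, SE 0.065, adjusted p = 0.0024). UQCRQ, the small ubiquinone-binding subunit, stood at 33.1, 53.2 and 60.2 CPM in IKZF1-ko, against 65, 48.8 and 69.4 CPM in NT control (log2 fold change -0.34, SE 0.074, adjusted p = 0.00556), and lost its call with a surrogate variable (-0.25, adjusted p = 0.0512). Both genes were lowest in IKZF1-ko replicate 1 and next lowest in NT control replicate 2, so there was overlap between the groups.

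The catalytic and core genes of complex III were not called. CYC1, the cytochrome c1 gene, had a log2 fold change of -0.12 (adjusted p = 0.206) and UQCRFS1, the Rieske iron-sulfur protein gene, one of -0.07 (adjusted p = 0.393). UQCRC2, a core protein gene with the most counts of the nuclear genes of the complex, stood at 354, 305 and 311 CPM in IKZF1-ko, against 290.4, 332 and 311 CPM in NT control (log2 fold change 0.05, SE 0.046, adjusted p = 0.492). UQCRH, the hinge protein gene, stood at 247, 240.4 and 230.1 CPM in IKZF1-ko, against 242, 268 and 237 CPM in NT control (-0.05, adjusted p = 0.50). Its retrocopy UQCRHL was low, at 3.475, 3.11 and 2.66 CPM in IKZF1-ko, against 2.04, 3.21 and 2.45 CPM in NT control (0.27, adjusted p = 0.456), and the pair can share reads.

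Complex IV, cytochrome c oxidase, had 14 of 20 members tested, of which 4 fell, and all 14 fold changes were below 0. COX7B (ENSG00000131174, chromosome X, 77899438 to 77907373), a small membrane subunit, had the lowest adjusted p of all members. It stood at 60.7, 77.8 and 79.7 CPM in IKZF1-ko replicates 1, 2 and 3, against 97.7, 83.6 and 93.5 CPM in NT control replicates 1, 2 and 3. The groups did not overlap, and IKZF1-ko was 1.26-fold lower (log2 fold change -0.34, SE 0.056, adjusted p = 0.000614), with -0.30 (adjusted p = 0.00291) when a surrogate variable replaced the set term.

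COX7A2, another small subunit, stood at 116, 142 and 145 CPM in IKZF1-ko, against 170.5, 153 and 168 CPM in NT control (log2 fold change -0.28, SE 0.05, adjusted p = 0.00104), without overlap. COX8A, also small, stood at 37.5, 44.3 and 43.6 CPM in IKZF1-ko, against 53.6, 52.6 and 46.2 CPM in NT control (log2 fold change -0.29, SE 0.077, adjusted p = 0.0201), without overlap. COX6B1, which faces the intermembrane space, stood at 129.6, 149 and 143 CPM in IKZF1-ko, against 158, 168 and 152 CPM in NT control (log2 fold change -0.18, SE 0.058, adjusted p = 0.0454). The groups did not overlap in COX6B1 either, but its call was lost with DESeq2 (adjusted p = 0.0559), with a surrogate variable (-0.18, adjusted p = 0.0739) and in the 4 libraries of the larger set (-0.09, adjusted p = 0.266). COX8A was likewise not called in the 4 libraries (-0.18, adjusted p = 0.101).

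COX4I1, with the most counts of the nuclear complex IV genes, stood at 328, 396 and 362 CPM in IKZF1-ko, against 402, 416 and 381 CPM in NT control and did not pass (log2 fold change -0.14, adjusted p = 0.117). COX6C (-0.09, adjusted p = 0.227) stood at 134, 166 and 169 CPM in IKZF1-ko, against 170.1, 151 and 179 CPM in NT control. COX7C (-0.05, adjusted p = 0.54) stood at 194, 200.4 and 194 CPM in IKZF1-ko, against 199, 215 and 196 CPM in NT control. COX5A, COX5B and COX6A1 were likewise not called, with log2 fold changes of -0.15, -0.12 and -0.28. COX6A1 stood at 12.9, 18.8 and 18.5 CPM in IKZF1-ko, against 23.3, 18.2 and 19.2 CPM in NT control.

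COX7A2L, known as a factor of respiratory supercomplexes, stood at 72.2, 55.9 and 59.3 CPM in IKZF1-ko, against 64.6, 74.8 and 66.5 CPM in NT control (-0.14, adjusted p = 0.127), and fell in the 4 libraries of the larger set. It was higher in IKZF1-ko replicate 1 and NT control replicate 2 than in the other 4 libraries, unlike its paralog COX7A2. Several isoforms known mainly from other tissues were not detected: COX4I2, COX6A2, COX7A1, COX7B2 and COX8C had no counts in any library, as did the ATP5MG copy ATP5MGL. A count of 0 allows up to 0.165 to 0.265 CPM per library, taken as 3 counts and covering counting error only. COX6B2 had 1, 0 and 3 counts in IKZF1-ko, against 0, 1 and 1 counts in NT control.

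Complex V had 20 of 21 members tested, of which 6 fell and 0 rose. None of the 5 ATP5F1 genes of the F1 part was called, with a median of -0.03, but all 5 fold changes were below 0. ATP5F1E, the epsilon subunit, was at -0.13 (adjusted p = 0.0832) and ATP5F1A, the alpha subunit, at -0.09 (adjusted p = 0.178). ATP5F1B, the catalytic beta subunit and the nuclear member with the highest level per length in all complexes (552 CPM per kilobase of exon), stood at 1119, 1371 and 1315 CPM in IKZF1-ko, against 1356, 1135 and 1390.0 CPM in NT control (log2 fold change -0.03, SE 0.042, adjusted p = 0.727).

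The members that fell belong to the membrane part, the stalk and associated small proteins. ATP5MK (ENSG00000173915, chromosome 10, 103389041 to 103396492), a small protein of the ATP synthase dimer, stood at 46.4, 54.55 and 57 CPM in IKZF1-ko replicates 1, 2 and 3, against 69.1, 57.1 and 69.2 CPM in NT control replicates 1, 2 and 3 (log2 fold change -0.31, SE 0.058, adjusted p = 0.00181), without overlap. ATP5ME, subunit e, stood at 38.6, 49.6 and 50.7 CPM in IKZF1-ko, against 60.2, 52.5 and 57.8 CPM in NT control (log2 fold change -0.30, SE 0.065, adjusted p = 0.00499), also without overlap. ATP5MF, subunit f, stood at 15.2, 22.2 and 21.9 CPM in IKZF1-ko, against 28.7, 22.1 and 25.3 CPM in NT control (log2 fold change -0.37, SE 0.09, adjusted p = 0.011), with overlap. ATP5MF shares exon positions with ATP5MF-PTCD1 and PTCD1 on its strand. ATP5PF, a stalk subunit, fell by 0.19 on the log2 scale (adjusted p = 0.0214), and was not called with a surrogate variable (-0.11, adjusted p = 0.235).

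ATP5MC1, ATP5MC2 and ATP5MC3 encode the same mature c subunit of the rotor ring, and no test compared the 3. ATP5MC1 stood at 80.45, 146 and 152 CPM in IKZF1-ko, against 163, 121 and 164 CPM in NT control (log2 fold change -0.27, SE 0.07, adjusted p = 0.0142). ATP5MC3 stood at 172, 255 and 255 CPM in IKZF1-ko, against 282, 217 and 288 CPM in NT control (log2 fold change -0.22, SE 0.049, adjusted p = 0.00683). ATP5MC1 was called neither with a surrogate variable (-0.18, adjusted p = 0.155) nor in the 4 libraries (-0.13, adjusted p = 0.0571), and ATP5MC3 lost its call with a surrogate variable (-0.14, adjusted p = 0.0885). ATP5MC2, with most counts of the 3, stood at 421, 368 and 359.7 CPM in IKZF1-ko, against 342, 454 and 343 CPM in NT control (log2 fold change 0.02, SE 0.049, adjusted p = 0.824).

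ATP5MC2 held 62.5%, 47.8% and 46.9% of their summed CPM in IKZF1-ko replicates 1, 2 and 3, against 43.4%, 57.3% and 43.1% in NT control replicates 1, 2 and 3. The sums were 674, 770.2 and 766 CPM in IKZF1-ko, against 787, 793 and 795 CPM in NT control. The ATP5MC2 share was thus highest in the libraries that stood apart, IKZF1-ko replicate 1 and NT control replicate 2, with ATP5MC1 at 11.9% and 15.3%, against 19% to 20.7% in the other libraries.

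Of the other complex V genes, ATP5PO, the stalk subunit known for oligomycin sensitivity, stood at 22.45, 19.6 and 20.9 CPM in IKZF1-ko, against 16.5, 21.8 and 20.6 CPM in NT control (0.10, adjusted p = 0.557). ATP5MG, subunit g, stood at 112, 114 and 108 CPM in IKZF1-ko, against 126, 116 and 125 CPM in NT control (-0.13, adjusted p = 0.0954), and fell in the 4 libraries. ATP5IF1, the inhibitor of ATP hydrolysis, stood at 50.6, 46.4 and 46.2 CPM in IKZF1-ko, against 43.9, 54.9 and 45.2 CPM in NT control (-0.0046, adjusted p = 0.977). ATP5IF1 was higher in IKZF1-ko replicate 1 and NT control replicate 2 than in the other libraries.

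**Figure D2:**
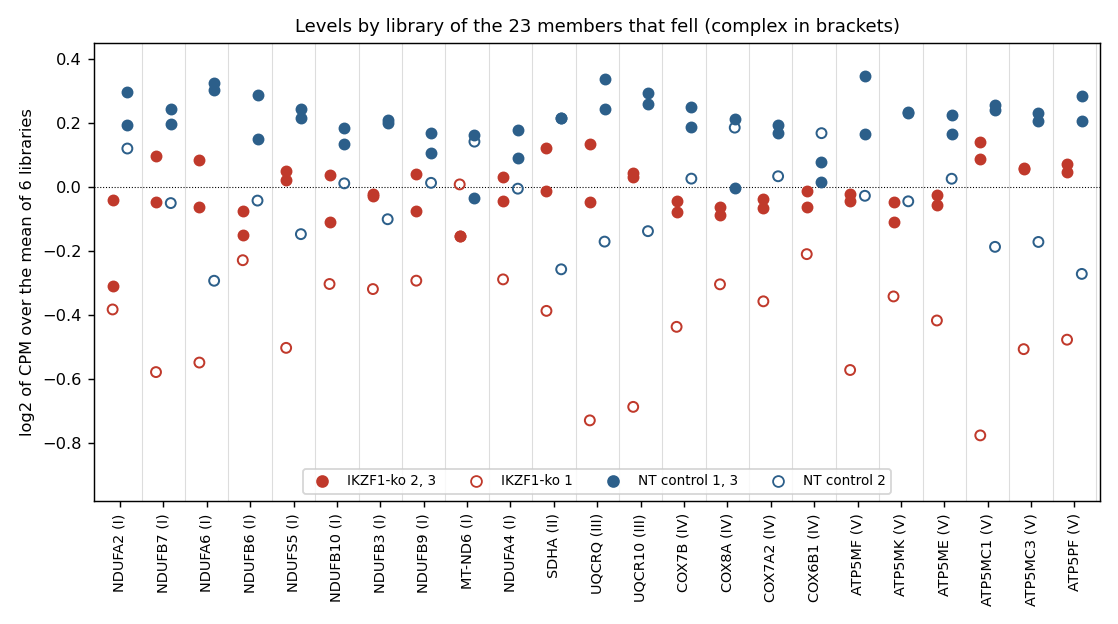
Level of each of the 23 members that fell, as log2 of its CPM over the mean of the 6 libraries (vertical axis). IKZF1-ko is red and left, NT control blue and right in each column, and open circles mark IKZF1-ko replicate 1 and NT control replicate 2. In 8 of the 23 all red points lie below all blue points, and IKZF1-ko replicate 1 is the lowest library in all but MT-ND6.

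The 13 mitochondrial genes took 2.645% (Wilson 95% interval 2.637 to 2.653), 3.086% (3.078 to 3.094) and 3.166% (3.158 to 3.175) of counts in IKZF1-ko replicates 1, 2 and 3, against 3.582% (3.571 to 3.592), 2.363% (2.356 to 2.371) and 3.062% (3.052 to 3.072) in NT control. The intervals cover counting error only. The group means, 2.97 ± 0.281% in IKZF1-ko and 3.0 ± 0.612% in NT control (SD, n = 3 each), differed by less than the spread between libraries. The low libraries were again IKZF1-ko replicate 1 and NT control replicate 2. Of the 13 genes 1 fell and 0 rose in the set-term fit, with a median of -0.03, against -0.13 for the 80 nuclear members tested. A single call in 13 genes is near the 6.62% of all genes that fell in that fit, and is no result about the mitochondrial genes. The mitochondrial median changed sign with a surrogate variable (0.012) and without NT control replicate 1 (0.0475), and whether the genomes differ was not tested.

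The oxidase genes had the highest levels per length of all members, with MT-CO1 at 6207, MT-CO2 at 5325 and MT-CO3 at 4190.0 CPM per kilobase. MT-CO1, the catalytic subunit of complex IV, stood at 8714, 9818 and 9996 CPM in IKZF1-ko, against 11250.0, 7927 and 9725 CPM in NT control (log2 fold change -0.01, adjusted p = 0.94). MT-CO2, which accepts electrons from cytochrome c, stood at 2805, 3908 and 3905 CPM in IKZF1-ko, against 4485, 2820.0 and 3930.0 CPM in NT control. MT-CO3 stood at 2953, 3336 and 3391 CPM in IKZF1-ko, against 3857, 2878 and 3296 CPM in NT control. In all 3, IKZF1-ko replicate 1 and NT control replicate 2 were the lowest libraries, and NT control replicate 1 the highest.

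MT-CYB, the cytochrome b gene of complex III, stood at 983, 1515 and 1606 CPM in IKZF1-ko, against 1970.0, 926 and 1609 CPM in NT control (log2 fold change -0.10, adjusted p = 0.346). In the 4 libraries of the larger set it fell (-0.20, adjusted p = 0.0153), and without NT control replicate 1 it was at 0.0116 in the set-term fit. Its level in IKZF1-ko replicate 1 was 0.63 times the mean of the other IKZF1-ko libraries, and in NT control replicate 2 it was 0.518 times that of the other NT control libraries. MT-ATP6, the proton channel subunit of complex V, stood at 1581, 2102 and 2092 CPM in IKZF1-ko, against 2488, 1485 and 2075 CPM in NT control. MT-ATP8, whose frame overlaps MT-ATP6, was counted at 2.67, 3.28 and 4.315 CPM in IKZF1-ko, against 5.18, 2.39 and 4.2 CPM in NT control. The part of the overlap in the low MT-ATP8 count was not tested.

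Of the complex I genes, MT-ND1 stood at 1905, 1450.0 and 1533 CPM in IKZF1-ko, against 1860.0, 1449 and 1469 CPM in NT control. MT-ND2 stood at 1879, 2210.0 and 2242 CPM in IKZF1-ko, against 2421, 1597 and 2130.0 CPM in NT control. MT-ND3 stood at 164, 169 and 166 CPM in IKZF1-ko, against 177, 159 and 174 CPM in NT control. MT-ND1 was unlike the others, since IKZF1-ko replicate 1 was its highest library. MT-ND4 stood at 3965, 3848 and 3945 CPM in IKZF1-ko, against 4394, 3281 and 3555 CPM in NT control. MT-ND4L, which overlaps it, stood at 264, 267 and 285 CPM in IKZF1-ko, against 343, 223 and 276 CPM in NT control. MT-ND5 stood at 1586, 1932 and 2051 CPM in IKZF1-ko, against 2157, 1253 and 1857 CPM in NT control. These genes encode membrane subunits of complex I, and none of these 6 was called.

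MT-ND6 (ENSG00000198695, mitochondrial chromosome, 14149 to 14673), the complex I subunit encoded on the strand opposite to the other members, was the mitochondrial gene that fell. It stood at 154, 138 and 137 CPM in IKZF1-ko, against 149, 168 and 171 CPM in NT control (log2 fold change -0.19, SE 0.054, adjusted p = 0.0281). IKZF1-ko replicate 1 lay above NT control replicate 1, so the groups overlapped, and the call was lost without IKZF1-ko replicate 2 or 3 or NT control replicate 3 (adjusted p = 0.0759, 0.146 and 0.191). With a surrogate variable its log2 fold change was -0.21 (adjusted p = 0.0275). MT-ND6 mRNA is known to carry little poly(A), on which these libraries select.

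The ratio of MT-CYB to MT-ND1, genes of the same strand far apart along the transcript, was 0.516, 1.045 and 1.048 in IKZF1-ko replicates 1, 2 and 3, against 1.06, 0.639 and 1.095 in NT control. It thus set IKZF1-ko replicate 1 and NT control replicate 2 apart from the other 4, and the group means, 0.87 ± 0.306 in IKZF1-ko and 0.931 ± 0.253 in NT control (SD, n = 3 each), differed by less than the spread between libraries. Nuclear copies of mitochondrial genes took reads equal to 1.11% to 1.37% of those of the 13 members, most of them in MTATP6P1, so the members' values carry that uncertainty. MTATP6P1 had 4153, 6880 and 6321 counts in IKZF1-ko, against 5409, 3777 and 4261 in NT control. MT-ATP6 had 23656, 38497 and 35396 counts in IKZF1-ko, against 29320, 21756 and 23717 in NT control. The uncertainty is thus larger for MT-ATP6 than for the 13 members together.

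**Figure D3:**
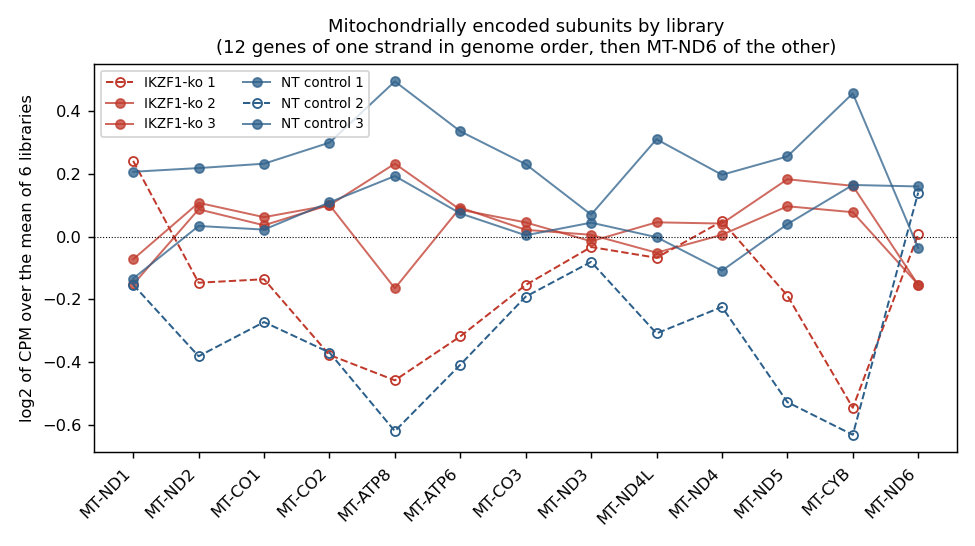
Level of the 13 mitochondrial protein genes as log2 of CPM over the mean of the 6 libraries (vertical axis), with genes in genome order and MT-ND6 last. Red lines are IKZF1-ko and blue lines NT control, and dashed lines with open circles are IKZF1-ko replicate 1 and NT control replicate 2, which lie below the other 4 libraries in 10 of the 13 genes.

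The libraries that stood apart were then set beside the other 4 for all members, as a description only, since the sets were defined from the same counts. IKZF1-ko replicate 1 and NT control replicate 2 lay below all other libraries in 40 of 93 members (43.0%, against 31.5% of all genes) and above them in 17 (18.3%, against 32.5% of all genes). Complex I had 18 members below and 7 above, complex II 2 and 1, complex III 6 and 4, complex IV 5 and 1, and complex V 9 and 4. NDUFB2, an accessory subunit of complex I, stood at 13.6, 26.7 and 23.5 CPM in IKZF1-ko, against 29.6, 18.2 and 27.6 CPM in NT control. NDUFS6, an accessory subunit with a zinc site, stood at 36.55, 60.1 and 54.2 CPM in IKZF1-ko, against 61.6, 41.1 and 63.7 CPM in NT control. NDUFB5, another accessory subunit, stood at 144, 110.1 and 119 CPM in IKZF1-ko, against 112, 142 and 109 CPM in NT control, and was high in the libraries in which NDUFB2 and NDUFS6 were low.

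Genes of hypoxia and glycolysis moved with these libraries. Of 30 tested from that list, 23 were higher in both than in all other libraries and 2 were lower. Their summed level was 21400 CPM in IKZF1-ko replicate 1 and 21790 CPM in NT control replicate 2, against 15740 to 16640 CPM in the other 4. The glycolytic aldolase gene ALDOC stood at 459, 168 and 154 CPM in IKZF1-ko, against 108, 456 and 107 CPM in NT control. The summed level of 11 myeloid markers was 4055 and 3888 CPM in IKZF1-ko replicate 1 and NT control replicate 2, against 2188 to 2683 CPM in the other 4. Of the 11, 6 were higher in both than in all other libraries and 2 were lower, beside 32.5% and 31.5% of all genes. Between the groups, 8 hypoxia and glycolysis genes and 6 myeloid markers rose in the set-term fit, while 2 and 1 fell (6.93% of all genes rose and 6.62% fell). With a surrogate variable 2 hypoxia and glycolysis genes rose and 0 fell, and 3 myeloid markers rose and 1 fell. The part of these genes in the members' levels was not tested. In bulk samples, fewer cells of a kind and less RNA per cell cannot be told apart.

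The nuclear members that fell had short transcripts by their median, although they ranged from 305 to 5484 nucleotides. Their principal transcripts had a median of 821.5 nucleotides for the 22 nuclear members that fell, against 1213 for the 58 not called and 3173 for 11263 protein-coding genes tested. Across 72 nuclear members with at least 10 CPM, transcript length and log2 fold change had a Spearman rho of 0.398, and across 8853 protein-coding genes at that level rho was 0.243. These points share libraries and genes are not independent replicates. Among members of 600 to 1000 nucleotides 10 of 28 fell (35.7%), against 18.8% of 448 genes of that length. Under 600 nucleotides 5 of 9 fell (55.6%), against 18.2% of 66 genes, and from 1000 to 2000 nucleotides 3 of 23 (13%), against 10.8% of 2201. From 2000 to 4000 nucleotides 3 of 12 members fell (25%), against 7.91% of 4414 genes, and from 4000 on 1 of 8 (12.5%), against 3.89% of 4134. The part of transcript length in the result was not tested. GC content had a rho of -0.131 over the 72 members.

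**Figure D4:**
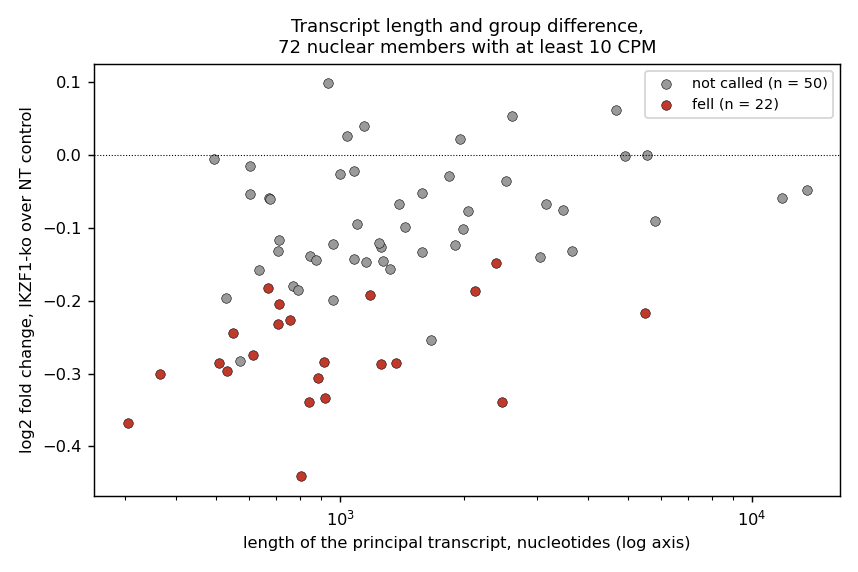
Length of the principal transcript in GENCODE (horizontal, log axis) and log2 fold change of IKZF1-ko over NT control (vertical) for the 72 nuclear members with at least 10 CPM, from the fit with the library-set term. Red points fell. The median length of the nuclear members that fell was 821.5 nucleotides.

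Overlaps with other genes went with low levels. Of the 88 nuclear members, 5 shared at least 50% of their principal transcript with another gene on the same strand, and their median level was 2.53 CPM, against 79 CPM for the 68 without such overlap. These were NDUFV2 (82.9% shared, 0.875 CPM over 6 libraries), NDUFA7 (75.9%, 0.424 CPM), NDUFB8 (71.7%, 2.53 CPM), ATP5PO (70.3%, 20.3 CPM) and NDUFA11 (67%, 3.66 CPM). NDUFV2 and NDUFA11 are known as constant subunits of complex I. The part of the overlap in these low counts was not tested, and the counting settings are not known here. NDUFA7 had 8, 14 and 6 counts in IKZF1-ko, against 2, 8 and 2 counts in NT control, and was not tested. Of the 23 members that fell, ATP5MF (46.2%), COX8A (34.5%), ATP5MK (16.1%) and ATP5MC3 (1.71%) had any such overlap.

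The other genes of the pathway were counted by lists, again in the fit with the set term, and 0 were called on group alone. Of 203 tested, 34 fell and 2 rose, beside 6.62% and 6.93% of all genes. Of 81 genes of the mitochondrial ribosome 17 fell and 0 rose, and of 20 genes of mitochondrial transcription and DNA 7 fell and 0 rose. Of 20 genes of electron carriers and exchangers 5 fell, of 19 TCA cycle genes 2 fell, of 16 complex I assembly genes 1 fell, and of 34 assembly genes of the other complexes 1 rose and 1 fell. Of 13 nuclear regulators 1 rose and 1 fell. Single calls in lists of this size are near the share over all genes and are no result about those lists. The lists lost most calls with a surrogate variable, where 4 ribosome and 3 carrier genes fell and 1 assembly gene rose.

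CYCS, the cytochrome c gene, stood at 117, 195 and 205 CPM in IKZF1-ko, against 252, 136 and 268 CPM in NT control (log2 fold change -0.33, SE 0.052, adjusted p = 0.000372, and -0.20, adjusted p = 0.0218, with a surrogate variable). Its 2 lowest libraries were IKZF1-ko replicate 1 and NT control replicate 2. NDUFAB1, the acyl carrier protein gene of complex I, which the symbol rule leaves out, stood at 43.5, 58.9 and 58.4 CPM in IKZF1-ko, against 68, 53.1 and 71.7 CPM in NT control (log2 fold change -0.26, SE 0.058, adjusted p = 0.00608). COQ9, of ubiquinone synthesis, stood at 36.6, 41.3 and 38.2 CPM in IKZF1-ko, against 47, 45.5 and 46.9 CPM in NT control (log2 fold change -0.26, SE 0.066, adjusted p = 0.0134), and its groups did not overlap.

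The mitochondrial RNA processing genes TRMT10C (log2 fold change -0.30, adjusted p = 0.00682), ELAC2 (-0.18, 0.0164), HSD17B10 (-0.24, 0.0189) and the mRNA stability gene SLIRP (-0.33, 0.0207) fell. None of these 4 was called with a surrogate variable. The mitochondrial ribosome genes MRPL47 (-0.31, 0.00336), MRPS11 (-0.38, 0.00368), MRPL11 (-0.25, 0.00473) and MRPS12 (-0.33, 0.00644) fell, of which MRPL47 and MRPL11 were also called with a surrogate variable. The assembly gene TTC19 of complex III rose (0.20, adjusted p = 0.0488), and the copper chaperone gene COX17 (-0.26, 0.0397) and the complex I assembly gene NDUFAF3 (-0.21, 0.0487) fell. GABPA, the ETS factor of many such promoters, was not called (0.13, adjusted p = 0.215), and the regulators SP1 (0.18, 0.0241) and HCFC1 (-0.15, 0.0358) were. With a surrogate variable COX17, NDUFAF3, SP1 and HCFC1 were not called, and TTC19 was (adjusted p = 0.0426).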

How the data were processed

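The submitters' processing notes name Trimmomatic, STAR and GRCh38 and give no tool version. Per the labels' protocols the libraries came from a stranded mRNA kit. The counts were used as the authors deposited them, whole numbers per gene and library. How reads were counted, with which annotation and with which strand setting, is not given in the sources used here. The table has 0 columns of other samples. Columns were assigned by library name, symbols came from the gene name table (57392 identifiers) and positions and gene types from GENCODE release 29 (57895 identifiers).

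The filterByExpr function kept 13028 genes, with 99.9% of counts. Each test was fitted on all of them with edgeR 4.0.16 in R 4.3.3 (TMM scaling, quasi-likelihood F test, two-sided, Benjamini-Hochberg adjustment, threshold 0.05), first with group as the sole term, then with a library-set term, the sign of the first principal component of log2 CPM (prior count 2). SE is the size of the log2 fold change over the square root of F. Means are given ± SD. Alternatives used DESeq2 1.42.0, limma 3.58.1 and sva 3.50.0. The fits were checked on simulated counts.

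Levels per length used the exon union, and lengths the principal transcript. Members, lists and the set term were chosen with earlier results of these data known. Values in every library were given for the mitochondrial genes, the 2 highest and 2 lowest fold changes and the highest level in each complex, paralogs, and other members added after their values were seen. From other lists, up to 4 genes by lowest p were named. 1 gene that the rule names is not reported here.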

Additional observations from a re-analysis of the deposited data

How the results depend on the processing

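On group alone, 0 members fell and 0 rose under each alternative run. With the library-set term, 20 to 26 members fell and 0 rose under RLE size factors, scaling without the mitochondrial genes, no filter, DESeq2, limma-voom and the 4 libraries alone. Leaving out 1 library at a time gave 12 to 24 falling and 0 to 1 rising members, with 12 lacking IKZF1-ko replicate 3 and 14 lacking NT control replicate 1. With a surrogate variable 10 fell, beside 3.53% of all genes falling in that fit. The other genes of the pathway had 36 calls in either direction, of which 34 fell. Calls in either direction numbered 22 with DESeq2, 8 with a surrogate variable and 11 to 39 with 1 library left out (11 lacking IKZF1-ko replicate 3, 13 and 15 lacking NT control replicates 1 and 3, 23 lacking IKZF1-ko replicate 2). The share of all genes called is given here only for the main fits, the surrogate variable and the 4 libraries alone. In the other runs the counts cannot be told apart from a shift over all genes. The cause of these shifts was not tested.

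Whether the replicate numbers pair the samples is not known. Deviations of same-numbered libraries from their group means correlated at -0.655, -0.689 and 0.588 for replicates 1, 2 and 3. These values cannot decide it, because IKZF1-ko replicate 1 and NT control replicate 2 stand apart from their groups and dominate the deviations. A replicate block on group alone called 0 members. With a replicate block beside the set term, 36 members fell, 1 rose and 59 other pathway genes were called, on 1 residual degree of freedom. The share of all genes called in that fit is not given here, so these counts are no result about the members.

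No log2 fold change of a member called as falling with the set term changed sign under any alternative run. Uncalled ones did: ATP5MC2 (-0.0249 with a surrogate variable, -0.00563 to 0.0899 with a library left out), ATP5F1B (0.0132 with a surrogate variable), MT-CYB (0.0182 with a surrogate variable, -0.197 to 0.0116 with a library left out) and MT-CO1 (0.0349 and -0.0824 to 0.0738), as did the mitochondrial median (0.012 and -0.107 to 0.0475). Precision is limited for the 8 tested members under 5 CPM.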
